A study of Rattus norvegicus with 6 samples.

Results

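The fragments of nuclear tRNA Tyr-GTA are the listed small RNAs whose name carries that tRNA and anticodon and no mitochondrial prefix. There were 18 of them among 615 listed fragments. They were 9 fragments that start at the first base of the tRNA (5' fragments), 5 that end in the CCA tail (3' fragments), 3 trailers, the 3' ends of the precursor that are cut off, and 1 internal fragment. They were measured by small RNA sequencing of total RNA from the hippocampus, a brain region of learning and memory. The donors were Sprague-Dawley rats aged 6 to 8 weeks that had received nicotine (3 libraries) or saline (3 libraries), and the titles number the rats of each group from 1 to 3. No allele or other agent is given in the labels, and the labels used here do not state the dose or the length of treatment. Whether each library came from 1 rat or from pooled tissue is given only by those titles. The listed fragments all come from tRNAs, so they hold no marker gene by which the dissected tissue could be checked.

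Transfer RNAs carry amino acids to the ribosome, and Tyr-GTA decodes tyrosine codons. In mammals nuclear tyrosine tRNA genes carry a short intron just after the anticodon, which the TSEN endonuclease removes before the exons are joined by the ligase RTCB. RNase P removes the leader, the nuclease ELAC2 cuts off the trailer, and CCA is then added to the 3' end. A trailer is therefore left over from the making of the tRNA, and a CCA-ended fragment comes from a tRNA whose 3' end was already finished. In mice, loss of the kinase activity of CLP1, a partner of TSEN, is known to leave fragments of tyrosine pre-tRNA and to cause loss of motor neurons. RefSeq (GRCr8) names 8 rat genes Trnay-gua. In its gene order Trnay-gua6, Trnay-gua5, Trnay-gua7 and Trnay-gua stand next to each other, as do Trnay-gua8 and Trnay-gua2.

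Values are CPM, read counts divided by a library total chosen by the authors. One read was worth 7.77 to 11.01 CPM in the nicotine libraries and 2.67 to 6.48 CPM in the saline libraries, since the totals were 90828 to 128694 reads and 154414 to 374763 reads. Every nicotine library was shallower than every saline library, so depth and treatment cannot be told apart. As the RNA came from whole tissue, a change per cell and a change in the number of cells of a type cannot be told apart either. Fragments of Tyr-GTA were read 876 times in nicotine and 1239 times in saline libraries. All listed fragments reached 20 CPM somewhere (the lowest peak was 21.3 CPM), a level met by 2 reads in nicotine rat 1 and by 8 reads in saline rat 1. Of the 615 fragments 26.8% reached it in nicotine libraries only and 3.74% in saline libraries only. That 20 CPM was the cut of the list is inferred from the values. With such a cut, the list itself favours fragments that are higher in nicotine libraries. Of the 18 Tyr-GTA fragments 11 reached it in both groups and 7 in nicotine libraries only, 5 of them in nicotine rat 1 alone. Those 5 were tRF-1:22-Tyr-GTA-1, tRF-1:22-Tyr-GTA-2, tRF-57:76-Tyr-GTA-1-M2, tRF-+1:T16-Tyr-GTA-1 and tRF-28:41-Tyr-GTA-1-M2, and the other two were tRF-1:23-Tyr-GTA-1 and tRF-1:32-Tyr-GTA-2. Read intervals treat each read as independent and do not cover the spread between rats. No molecular identifiers are described, so copies made by amplification could not be told apart, and the intervals may be too narrow.

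Most reads of Tyr-GTA fragments came from the 2 ends of the mature tRNA. Averaged over the 6 libraries, 3' fragments made up 59.5% of the Tyr-GTA reads, 5' fragments 30.8%, trailers 9.46% and the internal fragment 0.251%. The order 3' fragments, 5' fragments, trailers was the same in every library, and the share of 3' fragments lay between 55.8% and 65.6%. The 3' fragments were 1.53 to 2.63 times as abundant as the 5' fragments in the same library. No listed fragment covered the bases between the end of the internal fragment at position 41 and the start of the longest 3' fragment at position 55. Positions are those of the fragment names, counted from the first base, in which the CCA tail ends at position 76. That numbering leaves out the intron.

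**Figure D1:**
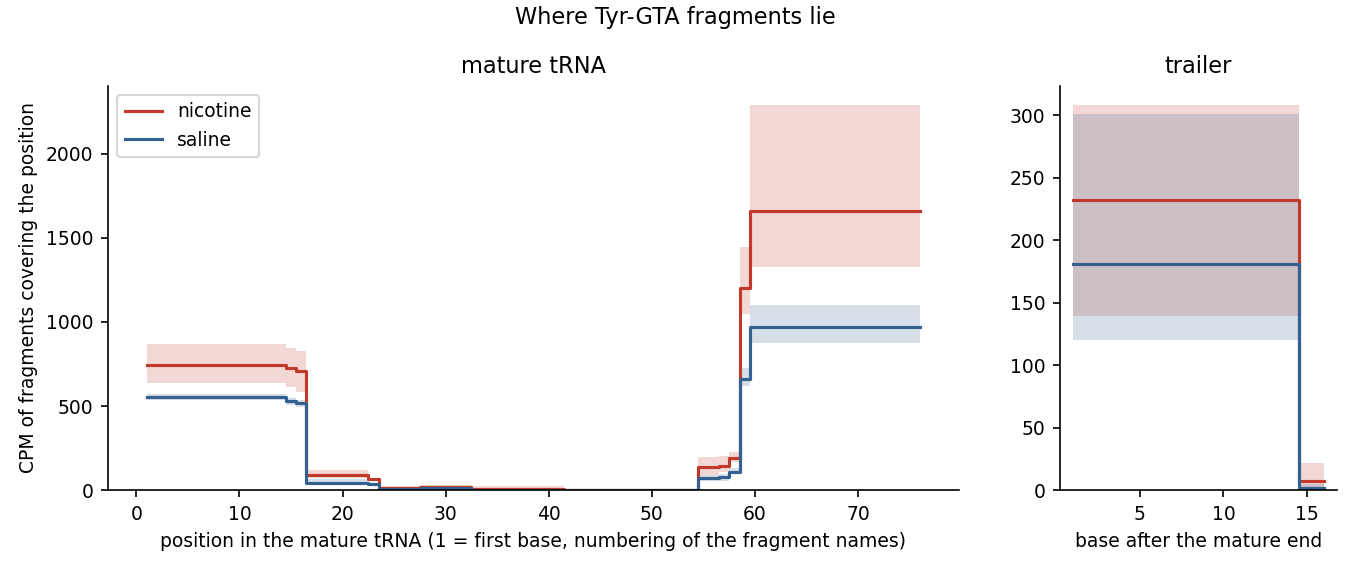
CPM of the Tyr-GTA fragments that cover each position of the mature tRNA (left) and each base of the trailer (right). Lines are means of the 3 nicotine and the 3 saline libraries, and bands run from the lowest to the highest library. The cover is held by bases 1 to 16 and by the last 17 to 18 bases before position 76, and the trailers stop at base 14 but for a fragment of 16 nt.

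The 5' fragments were short. Those of 16 nt made up 82.9% ± 4.64 of the 5' reads in nicotine libraries and 84.6% ± 1.31 in saline libraries (SD, n = 3 each). A 5' fragment of this length ends in the D loop and not at the anticodon. The only longer form near the anticodon, tRF-1:32-Tyr-GTA-2, had 0, 3 and 1 reads in nicotine rats 1 to 3, against 3, 1 and 2 reads in saline rats 1 to 3. No tiRNA (tRNA-derived stress-induced RNA, a piece left by a cut at the anticodon) was listed for nuclear Tyr-GTA. Among the 26 nuclear tRNAs with at least 100 CPM and 5' reads in every library, fragments of 14 to 16 nt (tRF-5a) made up a median of 26.9% of the 5' reads, and 89.9% in Tyr-GTA. Only 3 of these tRNAs had a larger share of tRF-5a. In level, the tRF-5a of Tyr-GTA ranked second (rank 2) of 24 nuclear tRNAs with 582 CPM on average, whereas its 5' fragments of 28 to 32 nt (tRF-5c) ranked 20 of 21 with 9.41 CPM. These ranks are descriptions of single tRNAs and were not tested.

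The most abundant 5' fragment, tRF-1:16-Tyr-GTA-2, stood at nearly the same level in all libraries. It had 407, 360 and 365 CPM in nicotine rats 1 to 3, against 336, 363 and 339 CPM in saline rats 1 to 3. The groups overlapped narrowly, by saline rat 2. It was tested with limma, a linear model on log2(CPM + 1) fitted to all 586 fragments read in at least 3 libraries, with p adjusted over all of them and a threshold of 0.05, which 0% of them passed. Its log2 fold change, nicotine over saline, was 0.12 (SE 0.37, adjusted p = 0.953), and it turned to -0.20 after TMM rescaling, which sets the bulk of the fragments level between libraries.

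The 16 nt 5' fragment under the other number, tRF-1:16-Tyr-GTA-1, varied more. Whether the 2 fragments differ in sequence was not checked. It had 297, 147 and 272 CPM in nicotine rats 1 to 3, against 157, 90.7 and 126 CPM in saline rats 1 to 3. Nicotine rats 1 and 3 were above all saline rats, and nicotine rat 2 lay within the saline range. The log2 fold change was 0.90 (SE 0.43), with an unadjusted p of 0.0406 and an adjusted p of 0.657 in limma, so it did not pass the threshold of 0.05. Of the reads of both 16 nt fragments, tRF-1:16-Tyr-GTA-1 took 42.2%, 29.0% and 42.7% in nicotine rats, against 31.9%, 20% and 27.1% in saline rats. The 95% Wilson intervals of the lowest nicotine and highest saline shares were 19.2% to 41.3% and 25.6% to 38.9%, and the groups overlapped. The files do not say how reads that fit several Tyr-GTA genes were divided between names, nor what the endings M2 and 2-2 stand for, so the division between the 2 names is uncertain.

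The other 7 5' fragments averaged 6.90 to 23.1 CPM over the libraries. The fragment tRF-1:23-Tyr-GTA-2 had 33.0, 16.4 and 31.1 CPM in nicotine rats 1 to 3, against 8.01, 25.9 and 24.2 CPM in saline rats 1 to 3, with overlap (log2 fold change 0.54, adjusted p = 0.897 in limma). That value was 0.03 without saline rat 1 and 0.85 without nicotine rat 2. Its counterpart tRF-1:23-Tyr-GTA-1 had 3, 3 and 4 reads in nicotine rats, against 4, 1 and 2 reads in saline rats. In CPM that came to 33.0, 24.5 and 31.1 in nicotine rats, against 10.7, 6.48 and 9.70 in saline rats, and the groups did not overlap (log2 fold change 1.63, SE 0.92, adjusted p = 0.689 in limma). The read counts themselves did overlap, and the fragment reached 20 CPM in nicotine libraries only. A cut of the list at that level favours a place above saline, and the part of such a cut in this difference was not tested. In CPM tRF-1:22-Tyr-GTA-2 did not overlap either, with 33.0, 8.18 and 7.77 in nicotine rats, against 2.67, 0 and 4.85 in saline rats. Its log2 fold change was 2.33 (SE 1.62, adjusted p = 0.752 in limma). It had 5 reads in nicotine and 2 in saline libraries and reached 20 CPM only in nicotine rat 1. Of the 16 tested Tyr-GTA fragments 3 had nicotine above saline without overlap, where 12.6% of all 586 tested fragments did. The fragment tRF-1:15-Tyr-GTA-1-M2 had 22.02, 32.7 and 0 CPM in nicotine rats 1 to 3, against 26.7, 13.0 and 9.70 CPM in saline rats 1 to 3. Its 0 in nicotine rat 3 allows up to 23.3 CPM (3 reads), and its log2 fold change of -0.80 turned to 0.80 without that library. For tRF-1:14-Tyr-GTA-1-M2 the nicotine libraries had 7.77 to 24.5 CPM and the saline libraries 14.5 to 32.4 CPM.

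**Figure D2:**
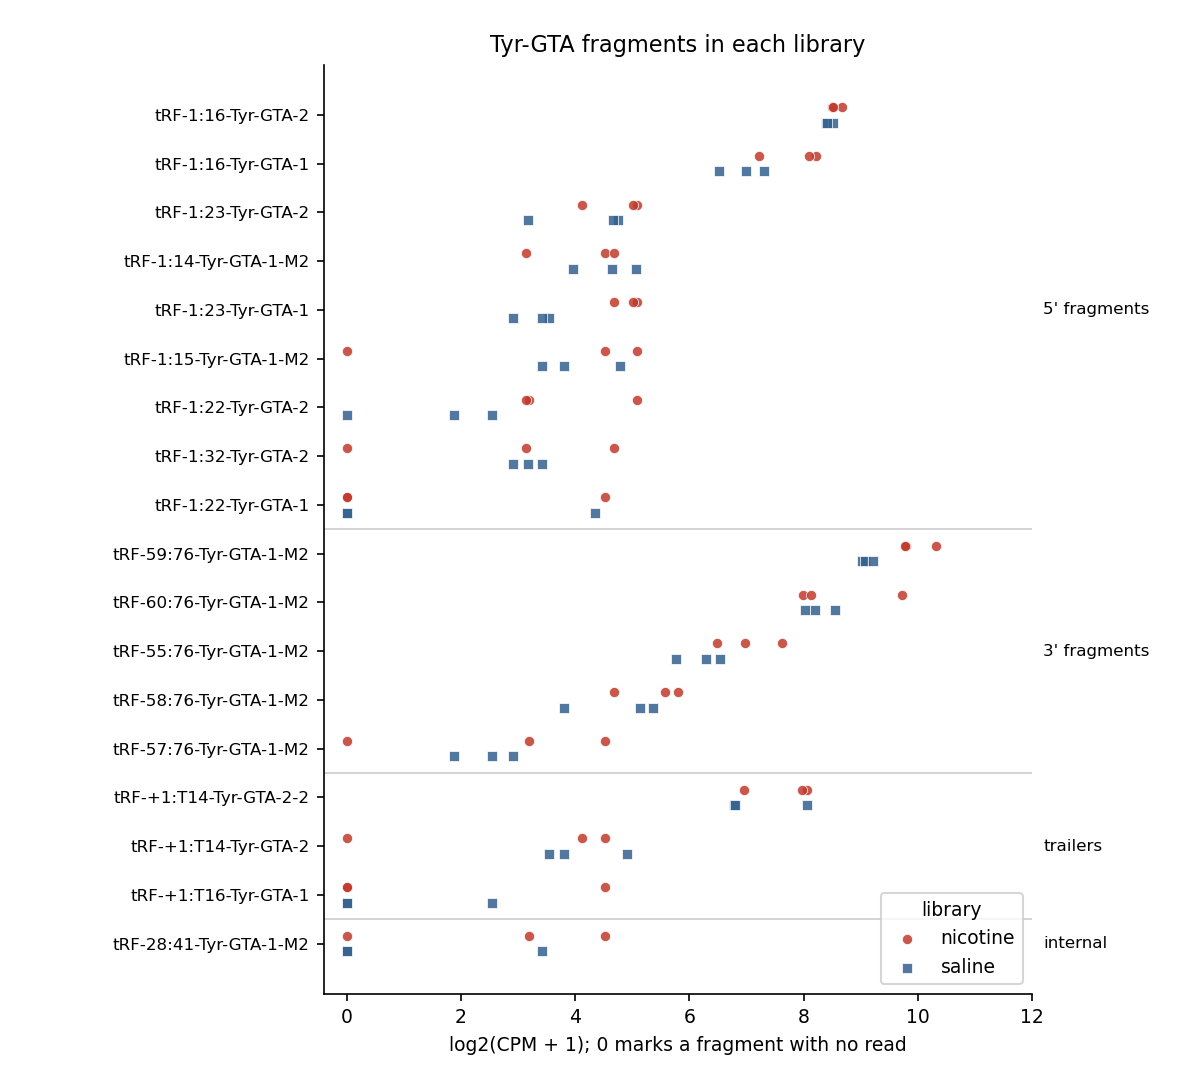
Level of each of the 18 Tyr-GTA fragments in each library, on a log2(CPM + 1) axis, with nicotine libraries as circles and saline libraries as squares. The 2 fragments of 16 nt, those that start at positions 55, 59 and 60, and the trailer Tyr-GTA-2-2 stand above the others, many of which have no read in at least 1 library.

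The 3' fragments held most of the Tyr-GTA reads and were higher in nicotine libraries without overlap, a difference that did not pass the adjusted threshold. Their sum was 2290, 1366 and 1329 CPM in nicotine rats 1 to 3, against 875, 926 and 1101 CPM in saline rats 1 to 3. All 3 nicotine libraries were above all 3 saline libraries, and nicotine rat 1 was far above the other two. On average there were 1661 CPM ± 545 in nicotine rats and 967 CPM ± 118 in saline rats (SD, n = 3 each). For this family, that is the fragments of one kind summed for one tRNA, the log2 fold change was 0.74 (SE 0.31, 95% interval 0.09 to 1.39). The unadjusted p was 0.0278 and the adjusted p over 172 families 0.542 in limma, so the family did not pass the threshold. Without nicotine rat 1 the log2 fold change was 0.48, after TMM rescaling 0.41, and on recovered reads 0.28 in edgeR and 0.35 in DESeq2. Of all 172 families 0% passed, 8.14% were higher with an unadjusted p under 0.05, and 15.7% were higher without overlap. The median log2 fold change of these families was 0.38, and 0.06 after TMM rescaling. Among the 40 tested nuclear tRF-3 families the median was 0.49, 38 were above 0, and Tyr-GTA ranked 13.

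The 18 nt form, tRF-59:76-Tyr-GTA-1-M2, was the most abundant Tyr-GTA fragment. It had 1277, 883 and 878 CPM in nicotine rats 1 to 3, against 520, 538 and 596 CPM in saline rats 1 to 3. Here too the groups did not overlap, and the lowest nicotine value was 1.47 times the highest saline value. The log2 fold change was 0.86 (SE 0.37, 95% interval 0.11 to 1.60; unadjusted p = 0.0252, adjusted p = 0.657 in limma). It stayed between 0.52 and 1.10 under every alternative run, with the lowest value in DESeq2 on recovered reads.

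The 17 nt form, tRF-60:76-Tyr-GTA-1-M2, was high in a single library. It had 848, 254 and 280 CPM in nicotine rats 1 to 3, against 259, 291 and 373 CPM in saline rats 1 to 3. Apart from nicotine rat 1, the nicotine libraries lay at or near the lower end of the saline range. The log2 fold change of 0.36 (SE 0.41, adjusted p = 0.851 in limma) turned to -0.19 without nicotine rat 1. The 17 nt form took 37.0%, 18.6% and 21.1% of the 3' reads in nicotine rats 1 to 3, against 29.6%, 31.5% and 33.9% in saline rats 1 to 3. Nicotine rats 2 and 3 thus had a smaller share of this form than any saline rat, and nicotine rat 1 a larger one.

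The 22 nt form, tRF-55:76-Tyr-GTA-1-M2, had 88.1, 196 and 124 CPM in nicotine rats 1 to 3, against 53.4, 77.7 and 92.1 CPM in saline rats 1 to 3. Nicotine rat 1, the highest for the 2 shorter forms, was the lowest nicotine library for this one and lay inside the saline range. In limma the log2 fold change was 0.82 (SE 0.50, adjusted p = 0.734), and 0.52 without nicotine rat 2. The 2 remaining 3' fragments were rare. tRF-58:76-Tyr-GTA-1-M2 had 24.5 to 55.0 CPM in nicotine and 13.0 to 40.03 CPM in saline libraries, and tRF-57:76-Tyr-GTA-1-M2 was read 3 times in each group.

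The trailers overlapped between the groups. Their sum was 308, 139 and 249 CPM in nicotine rats 1 to 3, against 120, 123 and 301 CPM in saline rats 1 to 3. Saline rat 3 stood with nicotine rats 1 and 3, and nicotine rat 2 stood near saline rats 1 and 2. The family had a log2 fold change of 0.42 (SE 0.44, 95% interval -0.51 to 1.35, adjusted p = 0.659 in limma). It was 0.85 without saline rat 3, 0.75 without nicotine rat 2, and 0.18, 0.19 and 0.21 without nicotine rat 1, saline rat 1 and saline rat 2. On recovered reads it turned to -0.14 in edgeR. Of the 27 tested nuclear tRF-1 families 24 were above 0, with a median of 0.51, and Tyr-GTA ranked 17.

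One trailer carried nearly all of that sum. tRF-+1:T14-Tyr-GTA-2-2, 14 nt long, took 91.3% ± 7.63 of the Tyr-GTA trailer reads in nicotine and 89.8% ± 1.23 in saline libraries (SD, n = 3 each). It had 264, 123 and 249 CPM in nicotine rats 1 to 3, against 109, 110 and 267 CPM in saline rats 1 to 3. In limma its log2 fold change was 0.44 (SE 0.44, adjusted p = 0.828). It was 0.86 without saline rat 3, 0.79 without nicotine rat 2, and 0.23 without saline rat 1, and on recovered reads 0.07 in edgeR and 0.03 in DESeq2. The second trailer, tRF-+1:T14-Tyr-GTA-2, had 22.02, 16.4 and 0 CPM in nicotine rats 1 to 3, against 10.7, 13.0 and 29.1 CPM in saline rats 1 to 3, and its log2 fold change of -1.21 turned to 0.23 without nicotine rat 3. The third, tRF-+1:T16-Tyr-GTA-1, had 2 reads in nicotine rat 1 and 1 read in saline rat 3, and none in the other libraries. It was not tested, as it was read in fewer than 3 libraries.

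The internal fragment tRF-28:41-Tyr-GTA-1-M2 lies across the anticodon loop. Its name numbers it along the spliced tRNA, and its stretch holds the place where the intron is removed. It had 2, 1 and 0 reads in nicotine rats 1 to 3, against 0, 0 and 2 reads in saline rats 1 to 3. With 5 reads in all, no difference was detectable at this depth (log2 fold change 1.43, SE 1.92, adjusted p = 0.879 in limma).

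**Figure D3:**
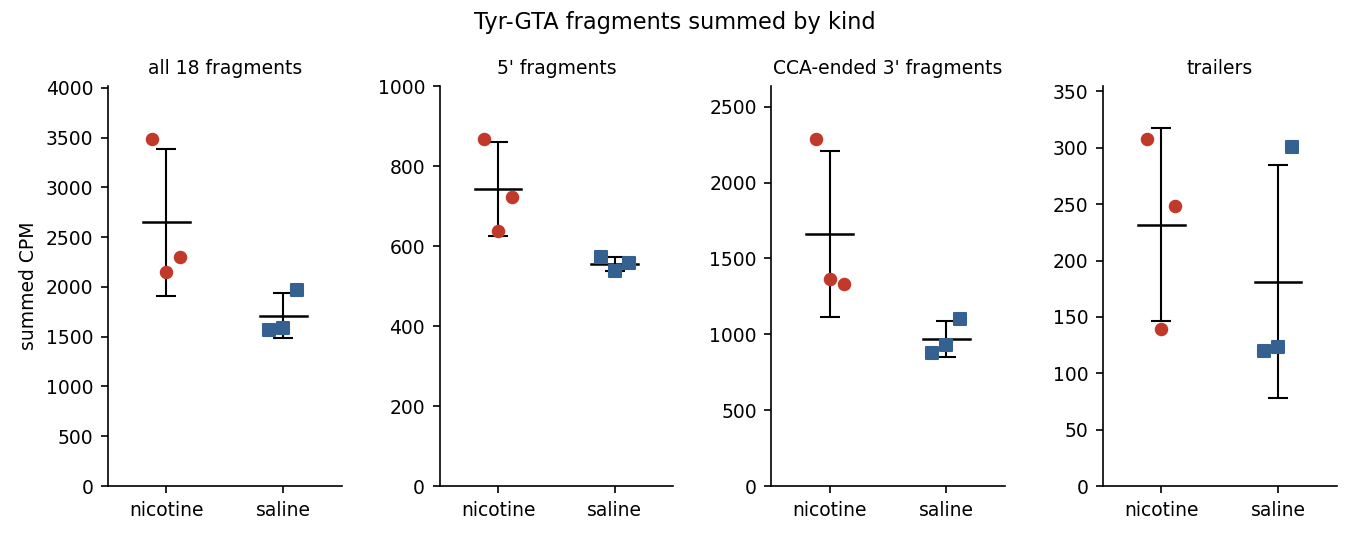
Summed CPM of all Tyr-GTA fragments and of the 5' fragments, 3' fragments and trailers in each library (points), with the mean (line) and SD (bar) of 3 nicotine and 3 saline libraries. The nicotine and saline points do not overlap for the whole sum, the 5' and the 3' fragments, and are mixed for the trailers.

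Summed over all kinds, Tyr-GTA had 3490, 2151 and 2300 CPM in nicotine rats 1 to 3, against 1569, 1587 and 1969 CPM in saline rats 1 to 3. The means were 2647 CPM ± 734 in nicotine rats and 1708 CPM ± 226 in saline rats (SD, n = 3 each), and the groups did not overlap. Among 66 tested tRNAs, nuclear and mitochondrial, 0% passed the threshold, and 9.09% were higher without overlap. The log2 fold change of Tyr-GTA was 0.61 (SE 0.31, 95% interval -0.01 to 1.22, adjusted p = 0.390 in limma), against a median of 0.45 over the 66. After TMM rescaling the values were 0.28 for Tyr-GTA and 0.12 for the median. Without nicotine rat 1 the value for Tyr-GTA was 0.39, and on recovered reads it was 0.32 in edgeR and 0.17 in DESeq2. Mean CPM put Tyr-GTA at rank 16 of 46 nuclear tRNAs.

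The 5' fragments as a sum had 870, 638 and 723 CPM in nicotine rats 1 to 3, against 574, 538 and 558 CPM in saline rats 1 to 3. The saline values were close together, and all nicotine values lay above them. This family had a log2 fold change of 0.41 (SE 0.29, 95% interval -0.20 to 1.01, adjusted p = 0.543 in limma). It went to 0.08 after TMM rescaling and turned to -0.08 in edgeR on recovered reads. The median of the 31 nuclear tRF-5 families was 0.07, and 17 of them were above 0.

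The kinds were then compared with each other within each library, where the scaling of the library drops out. For each tRNA the log2 ratio of 2 kinds was taken, and the ratios of all nuclear tRNAs that hold both were fitted together. The ratio of 3' to 5' fragments of Tyr-GTA was 2.63, 2.14 and 1.84 in nicotine rats 1 to 3, against 1.53, 1.72 and 1.97 in saline rats 1 to 3, with overlap. Its log2 change was 0.33 (95% interval -0.44 to 1.11, adjusted p = 0.625 in limma over 29 tRNAs), and it was 0.20 without nicotine rat 1. The median change of the 29 tRNAs was 0.42. The ratio of trailers to 3' fragments was 0.135, 0.102 and 0.187 in nicotine rats, against 0.137, 0.133 and 0.273 in saline rats. Its log2 change was -0.32 (95% interval -1.68 to 1.03, adjusted p = 0.966 in limma over 23 tRNAs), and it turned to 0.02 without saline rat 3. The ratio of trailers to 5' fragments was 0.354, 0.218 and 0.344 in nicotine rats, against 0.209, 0.229 and 0.539 in saline rats. Its log2 change was 0.01 (95% interval -1.43 to 1.45, adjusted p = 0.985 in limma over 18 tRNAs), and it turned to -0.24 without saline rat 1. None of the 3 ratios of Tyr-GTA passed, where 0% of the tRNAs in each fit did. The intervals reach past a doubling for all 3 ratios and past a halving for both trailer ratios, so changes of that size were not excluded.

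**Figure D4:**
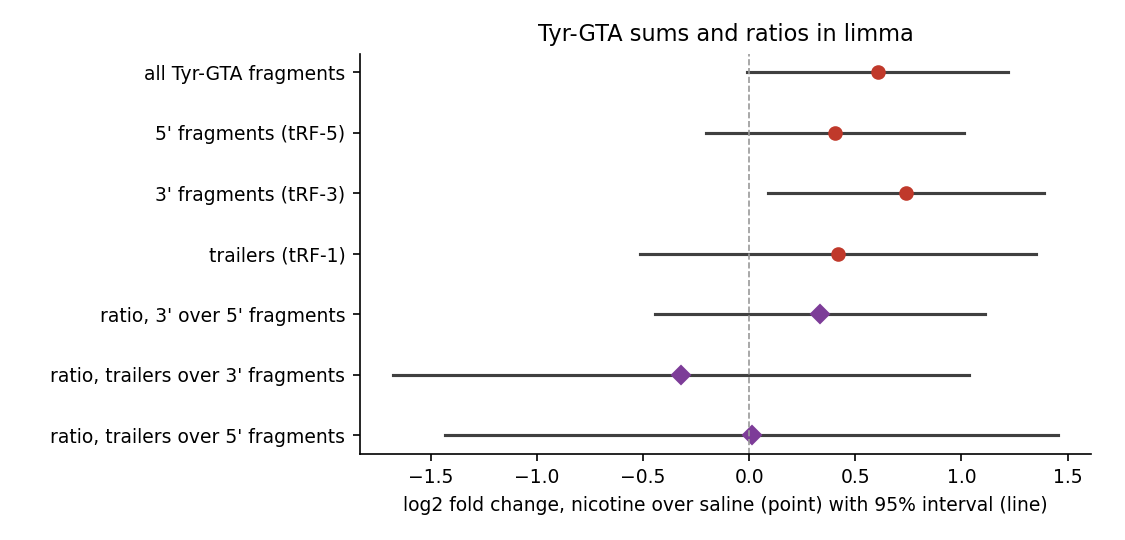
Log2 fold change, nicotine over saline, of the Tyr-GTA sums (circles) and of the ratios between kinds of Tyr-GTA fragment (diamonds), with 95% intervals from limma. The interval of the 3' fragments, 0.09 to 1.39, lies above 0 before adjustment, and all others include 0.

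As shares of the Tyr-GTA reads, 3' fragments took 62.3% ± 4.06 in nicotine and 56.7% ± 1.46 in saline libraries, and 5' fragments 28.7% ± 3.36 and 32.9% ± 4.20 (nicotine and saline, SD, n = 3 each). Trailers took 8.70% ± 2.18 in nicotine and 10.2% ± 4.37 in saline libraries (SD, n = 3 each). The groups overlapped for all 3 kinds. The trailer share of saline rat 3, 15.3% (95% Wilson interval 12.1% to 19.1%), was the highest, and the lowest was 6.46% in nicotine rat 2 (4.07% to 10.1%). The nicotine libraries held 17, 16 and 12 of the 18 fragments, against 15, 14 and 18 in the saline libraries. Thinned to 245 Tyr-GTA reads, the smallest number in a library, 16.6, 15.8 and 11.5 fragments would be expected in nicotine rats 1 to 3, against 13.2, 14 and 16.1 in saline rats 1 to 3.

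Of the 18 fragments 16 were tested, and 2 were read in fewer than 3 libraries. None passed the adjusted threshold in limma, where 0% of all 586 tested fragments did. On recovered reads none passed in edgeR, which kept 6 of the 18 after its filter on low counts, or in DESeq2, which took all 18. At an unadjusted p under 0.05 limma had 2 Tyr-GTA fragments, both higher in nicotine (tRF-59:76-Tyr-GTA-1-M2 and tRF-1:16-Tyr-GTA-1), edgeR had 0 and DESeq2 had 0. Over all 586 fragments 5.12% were higher and 1.88% lower at that level in limma. Of the 11 Tyr-GTA fragments that reached 20 CPM in both groups, 8 had a log2 fold change above 0 and 3 below 0, where 63.9% of the 427 such fragments were above 0. After TMM rescaling 7 were above 0 and 4 below 0, where 45.4% of the 427 were above 0. TMM rescaling moved the median log2 fold change of all 586 fragments to -0.02, against 0.28 in CPM as deposited.

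Other mammalian tRNAs with introns are Leu-CAA, Ile-TAT and Arg-TCT, and the 17 listed fragments of these were counted in the same fit. None of the 16 tested passed the adjusted threshold in limma in either direction, and 3, all higher, had an unadjusted p under 0.05, beside the 5.12% given above for all fragments. Their median log2 fold change was 0.47, against 0.28 over all fragments. It was 0.98 without nicotine rat 3, 0.75 without saline rat 2, 0.35 without saline rat 3 and 0.18 after TMM rescaling. In these settings the median over all fragments was 0.36, 0.34, 0.27 and -0.02. Of the 17, 7 reached 20 CPM in nicotine libraries only. If the list was cut at that level, this favours a median above 0. As sums, Leu-CAA had 1945 CPM ± 580 in nicotine rats and 1336 CPM ± 108 in saline rats, and Arg-TCT 175 CPM ± 37.8 and 99.8 CPM ± 15.1 (nicotine and saline, SD, n = 3 each). Ile-TAT had a single fragment, a 3' fragment of 18 nt that reached 20 CPM only through 2 reads in nicotine rat 1. It had 15.2 CPM ± 6.93 in nicotine rats and 3.40 CPM ± 2.95 in saline rats (SD, n = 3 each). Their log2 fold changes were 0.50, 0.79 and 2.19, with an adjusted p of 0.390 in limma for each. The kinds of fragment differed among these tRNAs. Arg-TCT gave 82.0% trailers and no 5' fragment, and Leu-CAA gave 81.4% 3' fragments and no trailer.

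The tRNAs with the make-up closest to Tyr-GTA were found by the sum of absolute differences between their mean shares of the 4 kinds over 6 libraries, among 37 nuclear tRNAs with at least 100 CPM (tiRNA from the 5' end counted as 5' fragments). They were Leu-CAG (a distance of 20.2 percentage points), Ile-AAT (32.9) and Leu-AAG (43.5). Leu-CAA, named above among the tRNAs with introns, came next at nearly the same distance (43.8), with 78.0% tRF-5a among its 5' reads. Ala-TGC (41.5) was left out with 99.3 CPM. Leu-CAG had 58.7% 3' and 40.9% 5' fragments, yet its trailers took 0.422%, and 35.7% of its 5' reads were tRF-5a. Ile-AAT and Leu-AAG had 75.9% and 80.7% 3' fragments and no listed trailer. Of their 5' reads 100% and 88.9% were tRF-5a, close to the 89.9% of Tyr-GTA. Tyr-GTA was at the median of the 37 tRNAs in its trailer share and ranked 12 in its share of 3' fragments.

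**Figure D5:**
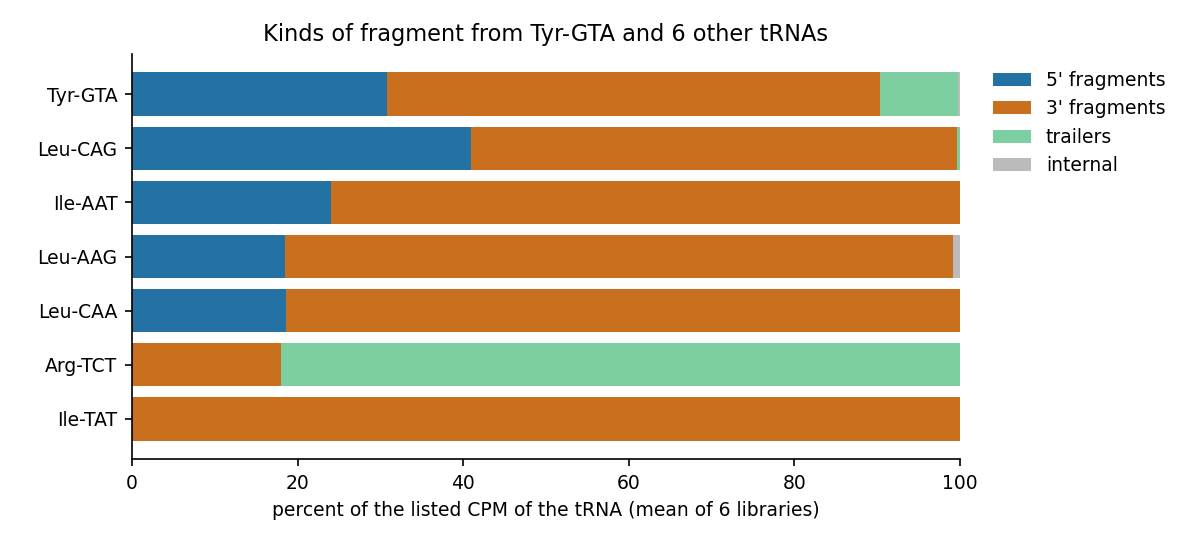
Mean share over 6 libraries of the 4 kinds of fragment in the listed CPM of Tyr-GTA, of the 3 nuclear tRNAs closest to it (Leu-CAG, Ile-AAT, Leu-AAG) and of the other tRNAs with introns (Leu-CAA, Arg-TCT, Ile-TAT). Tyr-GTA holds 59.5% 3' fragments, 30.8% 5' fragments and 9.46% trailers.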

How the data were processed

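Total RNA was ligated to adapters at both ends, reverse transcribed, amplified and size selected, and an Illumina NextSeq was used for sequencing, per the labels' protocols. FastQC, cutadapt and Bowtie were used, per the submitters' processing notes. For the genome build, the tRNA annotation and reads that fit several tRNAs, the method is not given in the sources used here. Values were deposited as CPM by the authors; 2 of the 6 headers lack a unit, and those columns were taken as CPM because their values have the same form. All values (100%) were whole multiples of 1 read within 0.001 reads, which gave the reads and totals. The listed fragments made up 47.1% to 68.8% of a total whose content is not stated.

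Kinds were assigned from names: tRF-5a 14 to 16 nt, tRF-5b 22 to 24 nt, tRF-5c 28 to 32 nt, tRF-3a 17 to 18 nt, tRF-3b 19 to 22 nt, tRF-1 trailers. limma 3.58.1 (trend, robust) in R 4.3.3 was run on log2(CPM + 1) of all fragments, families and tRNAs with at least 1 CPM in 3 libraries, with Benjamini-Hochberg adjustment at 0.05, two-sided. Ratios were fitted without trend. Fold changes are on the log2(CPM + 1) scale, and for low fragments they can understate or overstate the change in mean CPM. Where a library has 0 reads, they depend on the pseudocount and are no bound. For tRF-1:15-Tyr-GTA-1-M2 the value was -0.80, although the mean was 18.2 CPM in nicotine and 16.4 CPM in saline libraries. edgeR 4.0.16 and DESeq2 1.42.0 on recovered reads were alternatives, beside the pseudocount, filter, scaling, a replicate block and leaving out each library. Wilson intervals used scipy 1.17.1. The fits were run on simulated data with known changes. These had the same dispersion for every fragment, which need not match the spread of these libraries. No 2 libraries of a group agreed within sampling noise (chi-square per degree of freedom 11.9 to 24.4).

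The fragments and lists were chosen with earlier results of these data known. Values in every library are given for the 3 most abundant fragments of each kind and that with the smallest p in each direction. tRF-1:23-Tyr-GTA-1 was added after its values were seen. Also outside this rule, CPM in every library are given for tRF-1:22-Tyr-GTA-2, and reads in every library for tRF-1:32-Tyr-GTA-2. No sequence of these tRNAs was used here.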

Additional observations from a re-analysis of the deposited data

How the results depend on the processing

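Over all alternatives run, no Tyr-GTA fragment, family, sum or ratio passed the adjusted threshold. Of 121 recomputed values of the count of fragments past it, the families, the sum, the ratios and the shares, 111 kept their direction and side of it or moved by less than the spread and 10 turned. The 111 include sign changes that were not counted as turns. The difference in trailer share went from -1.52 to 1.00 percentage points without saline rat 3. That in the number of fragments read went from -0.67 to 0.20 after thinning. Of 141 recomputed values of named fragments 135 kept their direction and 6 turned. Both tallies include settings that could not turn a log2 fold change. In limma a changed filter or a replicate block leaves that value as it was and can move only its p. The 2 fragments at an unadjusted p under 0.05 in limma became 0 or 1 in 8 of 15 alternatives. On recovered reads the log2 fold change of the 5' family turned to -0.0836 in edgeR and -0.00541 in DESeq2, and that of the trailer family to -0.14 and -0.0593. That of tRF-1:16-Tyr-GTA-2 turned to -0.20 with TMM, -0.18 in edgeR and -0.22 in DESeq2. The ratio of trailers to 5' fragments turned to -0.0042 with a pseudocount of 10 CPM. With each library left out, the values ran from 0.48 to 0.88 for the 3' family, 0.29 to 0.51 for the 5' family, 0.18 to 0.85 for the trailer family and 0.39 to 0.74 for the sum. The ratios ran from 0.20 to 0.46 (3' to 5' fragments), -0.55 to 0.0156 (trailers to 3' fragments) and -0.24 to 0.44 (trailers to 5' fragments). Single fragments turned for tRF-60:76-Tyr-GTA-1-M2 (-0.19 without nicotine rat 1, to 0.68), tRF-1:15-Tyr-GTA-1-M2 (-1.74 to 0.80 without nicotine rat 3) and tRF-+1:T14-Tyr-GTA-2 (-2.03 to 0.23 without nicotine rat 3). The difference in shares, nicotine minus saline, ran from -6.56 to -2.38 percentage points for 5' fragments, 3.95 to 7.87 for 3' fragments and -2.81 to 1.00 for trailers. The cause of these turns was not tested.

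Same-numbered rats deviated together only weakly (correlations of 0.0868, 0.109 and 0.161 over tested fragments), and the labels give no shared litter or day, so no pairing was assumed. Every library correlated best with its own number, which is a hint from the data only. A replicate block cannot move a log2 fold change here, as both groups hold the same rat numbers, so that of the 3' family stayed 0.74. Its unadjusted p in limma went from 0.0278 to 0.0408 with the block, and its adjusted p from 0.542 to 0.547. With the block 0 Tyr-GTA fragments passed. Reads limit the rarer fragments: 10 of 18 were seen in all 6 libraries.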
